A study of Caenorhabditis elegans with 6 samples.

Results

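The genes described here build and run the sensory cilium of Caenorhabditis elegans. They were taken by WormBase symbol from a list of 44 cilium and intraflagellar transport genes, and all 44 were found among the 46911 genes of the count files. RNA of whole animals at the fourth larval stage was sequenced from 3 libraries of strain VC295, which carries unc-30(ok613), and from 3 libraries of the wild-type strain N2. Both strains were grown at the same temperature on the same bacterial food, from timed egg laying. unc-30 encodes a homeodomain transcription factor, best known for its action in GABAergic D-type motor neurons. It is also expressed in other neurons. The comparison asks which genes differ between the genotypes, with exonic length given beside each fold change.

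In the worm, cilia sit at the dendrite tips of a small set of sensory neurons, so their transcripts are dilute in RNA of the whole animal. Intraflagellar transport carries cargo along the ciliary microtubules: kinesin motors move the IFT-A and IFT-B protein complexes and the BBSome outwards, and a dynein motor brings them back. A gate of Meckel syndrome (MKS) and nephronophthisis (NPHP) proteins, the transition zone, closes the ciliary base, and the RFX factor DAF-19 switches many of the genes on. In bulk RNA of whole animals, fewer cells of a type and less RNA per cell cannot be told apart.

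Total counts ran from 17318736 to 26377332 per library. The targeted gene, unc-30, was counted 20, 24 and 17 times in the 3 mutant libraries against 23, 26 and 17 times in those of N2. After the scaling described next these are 1.29, 1.40 and 1.29 CPM against 0.586, 1.07 and 0.533 CPM, with the mutant above without overlap (log2 fold change 0.88 ± 0.42, SE; edgeR adjusted p = 0.128). Total-count scaling gives -0.13. Reads were counted over the whole gene, so this does not check the labels. Levels below are CPM, that is, counts put on one library total, here with the trimmed mean of M-values (TMM). Scaling by total counts in its place shifts the median of all tested genes by -1.01 on the log2 scale, so each direction is relative to the TMM reference. The genotypes lay apart on the first principal component (73.2% of the variance), on which the first mutant library and the second wild-type library were nearest to the other group.

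The cilium genes were few in reads. The median count of a member per library was 7 in the mutant and 23 in wild type, 27 members had fewer than 30 counts over the 3 mutant libraries, and 6 of 264 values were 0. The expression filter left 29 members to test and 15 untested. The filter works on CPM of total counts, where its minimum is 0.458 in each of 3 libraries. On the TMM scale used for levels here, that minimum equals 0.603 to 0.700 CPM in the mutant libraries and 0.308 to 0.333 CPM in those of wild type, so it is stricter for the mutant. Of the 29, 8 passed with all 3 wild-type libraries and no mutant library above the minimum, so these passed through the wild-type libraries alone.

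**Figure D1:**
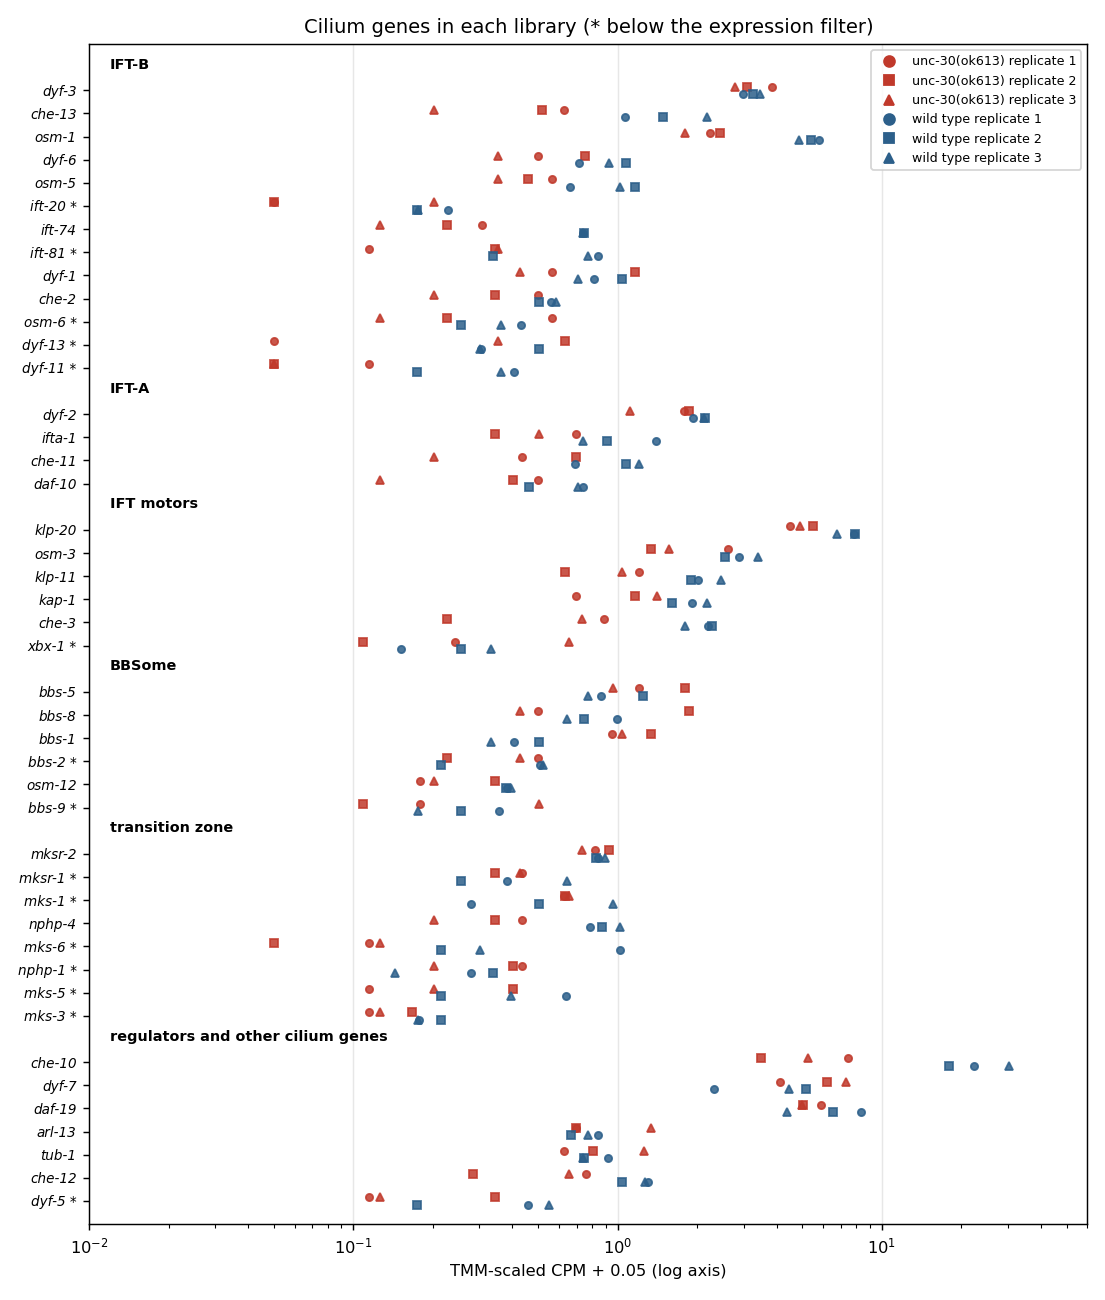
TMM-scaled CPM plus 0.05 (log axis) of each of the 44 cilium genes, grouped by role and ordered by wild-type level per exonic length. Each point is 1 library (red unc-30(ok613), blue wild type, with a symbol per replicate), and an asterisk marks the 15 genes below the expression filter. The blue points of che-10, at 17.9 to 30.1 CPM, are the farthest to the right.

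Of the 29 tested members, 7 fell, 1 rose and 21 did not pass (edgeR quasi-likelihood test, adjusted p under 0.05), where 38% of all 14506 tested genes passed. The falls made up 24.1% of the tested members, against 20.9% of all genes, and the rise 3.45% against 17.1%. The share of falls was near the background. The 7 that fell were che-10, ift-74, che-13, che-3, nphp-4, osm-1 and klp-11, and the 1 that rose was bbs-1. Of the 7, 3 (che-13, ift-74 and nphp-4) passed the filter through the wild-type libraries alone. The groups did not overlap in 16 of the 29 members, with the mutant below in 15 and above in 1. Among all tested genes they did not overlap in 52.6%, with the mutant below in 28.2% and above in 24.4%. The median log2 fold change of the tested members was -0.77, against -0.10 over all tested genes. Of the 29, 8 entered the test through the wild-type libraries alone and 0 through the mutant libraries alone. Among the 15 with the mutant below, che-2, che-13, osm-5, ift-74, osm-12 and nphp-4 entered through wild type alone. The filter thus tilts the split and the median towards falls, and nothing is read from them.

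The counts depended on the scaling and on the filter. With scaling by total counts 22 members were lower and 0 higher (edgeR), where 59.8% of all genes passed, 56.4% lower and 3.43% higher. A filter on the mean total-count CPM over all 6 libraries (at least 1), chosen after the data were seen, left 14 members. Of these, 5 fell (35.7%) and 0 rose, where 40.2% of all 13198 genes so tested passed, 22.2% lower and 17.9% higher.

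**Figure D2:**
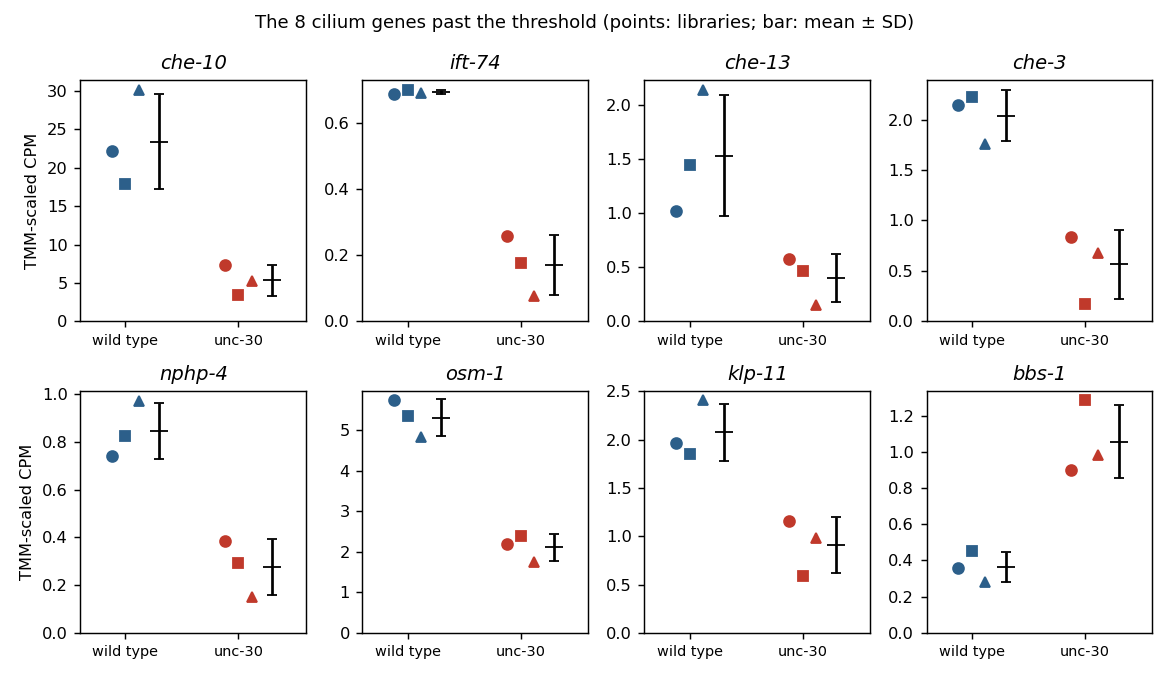
TMM-scaled CPM of the 8 cilium genes past the threshold, 1 panel per gene, with wild type in blue and unc-30(ok613) in red. Points are libraries and bars are mean ± SD (n = 3). In the 7 genes that fell the groups do not overlap, and bbs-1 is the panel with the red points on top.

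The largest change was that of che-10, which encodes rootletin, the coiled-coil protein of the rootlet at the ciliary base (WBGene00018051, chromosome II, 4627811 to 4638341, minus strand; exonic length 6724 bases). It had 7.40, 3.45 and 5.23 CPM in the mutant, against 22.2, 17.9 and 30.1 CPM in wild type. Every mutant library lay below every wild-type library. The gene fell 4.37-fold (log2 fold change -2.13 ± 0.36, SE; edgeR adjusted p = 0.00398). Per kilobase of exon, che-10 had the highest mean level of the 44 members in wild type (3.48 ± 0.924 CPM per kb, SD, n = 3) and ranked 7 in the mutant (0.797 ± 0.294). Its wild-type level did not stand above that of the next gene, klp-20 (3.29 ± 0.281), beyond the spread. The call held in every alternative and without any single library, with log2 fold changes of -1.38 to -3.12. It rested on 243 counts in the mutant and 2269 in wild type, the most of any member there.

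The other genes of the mixed group of regulators and cilium proteins did not pass. daf-19, the RFX factor that acts on X-box motifs of ciliary promoters (exonic length 3140 bases), had 5.85, 4.97 and 4.92 CPM in the mutant against 8.26, 6.46 and 4.32 CPM in wild type. The groups overlapped, and the log2 fold change was -0.27 ± 0.32 (edgeR adjusted p = 0.516). The 5 annotated transcripts of daf-19 are counted together, and in the worm only some of its isoforms act in cilium formation. dyf-7, a zona pellucida domain protein that anchors dendrite tips while neurons extend (1918 bases), had the highest level per kilobase of all members in the mutant, 3.03 ± 0.851 CPM per kb against 2.04 ± 0.768 in wild type. Its libraries stood at 4.05, 6.14 and 7.27 CPM in the mutant and at 2.27, 5.10 and 4.39 CPM in N2, with overlap (log2 fold change 0.57 ± 0.39, adjusted p = 0.268). che-12, a tubulin-binding protein of the cilium (4444 bases), ran from 0.234 to 0.708 CPM in the mutant and from 0.987 to 1.25 CPM in wild type, without overlap (-1.17 ± 0.48, adjusted p = 0.0835). arl-13, a small GTPase of the ciliary membrane (1265 bases), and tub-1, the Tubby homologue (1964 bases), had log2 fold changes of 0.25 and 0.16, and the groups overlapped in both. In each of them mutant replicate 3 was the highest of the 6 libraries.

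The IFT-B complex, which carries tubulin and other cargo outwards, had 3 falls among 8 tested genes, where 20.9% of all tested genes fell. Of the 8, 4 passed the filter through the wild-type libraries alone, ift-74 and che-13 among them. With the length trend removed 2 of the 8 fell, where 18.2% of all genes fell. Nothing is read from these counts. ift-74, which encodes a core coiled-coil subunit (chromosome II, 6680024 to 6683544; exonic length 2583 bases), had 0.257, 0.175 and 0.0757 CPM in the mutant against 0.688, 0.699 and 0.689 CPM in wild type. The wild-type libraries were close together and all above the mutant. It fell 3.91-fold (log2 fold change -1.97 ± 0.52; adjusted p = 0.0195) on 8 counts in the mutant and 66 in wild type. The call did not hold with DESeq2 (adjusted p = 0.0532), nor when mutant replicate 2, mutant replicate 3 or wild type replicate 3 was left out (adjusted p of up to 0.0984).

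che-13, which encodes a peripheral IFT-B subunit (chromosome I, 10506998 to 10515586; exonic length 1510 bases), had 0.579, 0.468 and 0.151 CPM in the mutant against 1.02, 1.44 and 2.13 CPM in wild type. Wild type replicate 3 was the highest and mutant replicate 3 the lowest, and the groups did not overlap. The fall was 3.72-fold (-1.89 ± 0.54; adjusted p = 0.0256), and omission of the same 3 libraries as for ift-74 ended the call (adjusted p of up to 0.0976). che-13 was the shortest of the genes that fell.

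osm-1, a large IFT-B subunit at the turnaround points of transport (chromosome X, 16540674 to 16551211; exonic length 6024 bases), had 2.19, 2.40 and 1.74 CPM in the mutant against 5.74, 5.35 and 4.82 CPM in wild type. The libraries of a group were close to each other and far from the other group. The fall was 2.50-fold (-1.32 ± 0.30; adjusted p = 0.0106) on 98 and 509 counts. Only the omission of mutant replicate 3 ended the call among the single libraries (adjusted p = 0.0681).

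The other tested IFT-B genes did not pass. dyf-3, a peripheral subunit (exonic length 1395 bases), had the highest level per kilobase of the complex in both groups, 2.28 ± 0.394 CPM per kb in the mutant and 2.28 ± 0.174 in wild type. Its libraries ran from 2.73 to 3.79 CPM in the mutant and from 2.93 to 3.42 CPM in wild type, with a log2 fold change of 0.00 ± 0.30 (adjusted p = 0.995). With scaling by total counts dyf-3 was called lower (-0.998, edgeR adjusted p = 0.0223). The longer osm-1 (6024 bases) was lower in every mutant library, but did not pass with the length trend removed (-0.56, edgeR adjusted p = 0.188). The difference between these genes was not tested. osm-5 (2605 bases) ran from 0.303 to 0.515 CPM in the mutant and from 0.612 to 1.11 CPM in wild type, without overlap (-1.10 ± 0.46, adjusted p = 0.0887). che-2 (2355 bases) stood in the mutant at 0.151 to 0.450 CPM, just below the 0.452 to 0.533 CPM of wild type (-0.72 ± 0.50). dyf-6 (2313 bases) and dyf-1 (3169 bases), whose groups overlapped, had log2 fold changes of -0.78 and -0.23. All 4 encode IFT-B subunits.

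IFT-A, needed for the return trip and for entry of membrane proteins, had all 4 genes tested and 0 called (edgeR). There were also 0 at an unadjusted p under 0.05 and 0 with DESeq2. With scaling by total counts all 4 were lower, where 56.4% of all tested genes were lower, so nothing is read from this. Of the 4, 2 (che-11 and daf-10) passed the filter through the wild-type libraries alone. dyf-2, the highest of the complex per kilobase (0.481 ± 0.0273 CPM per kb in wild type, 0.367 ± 0.0988 in the mutant; 4190 bases), had 1.74, 1.81 and 1.06 CPM in the mutant against 1.89, 2.10 and 2.07 CPM. Mutant replicate 3 was the lowest, and the log2 fold change was -0.38 ± 0.36 (adjusted p = 0.419). che-11 (4383 bases), ifta-1 (3897 bases) and daf-10 (3644 bases) had log2 fold changes of -1.20, -1.07 and -0.97, with adjusted p of 0.113 to 0.217. The groups of che-11 and daf-10 overlapped, and those of ifta-1 did not, at 0.292 to 0.643 CPM against 0.689 to 1.35 CPM. In the length bins of these 4 genes the median of all tested genes was -0.53 and -0.71.

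Among the motors, che-3 and klp-11 fell. che-3 encodes the heavy chain of the retrograde dynein and is the longest member (chromosome I, 8062007 to 8081671; exonic length 12568 bases). It had 0.836, 0.175 and 0.682 CPM in the mutant against 2.14, 2.22 and 1.75 CPM in wild type. Mutant replicate 2, with 3 counts, was the lowest, and the groups did not overlap. The fall was 3.64-fold (-1.86 ± 0.53; adjusted p = 0.0249). Without mutant replicate 2 the log2 fold change was -1.35 and no longer passed (adjusted p = 0.0812), and the omission of mutant replicate 3, wild type replicate 1 or wild type replicate 3 ended the call as well. xbx-1, the light intermediate chain of the same dynein (1275 bases), was untested, with 12 counts in the mutant and 18 in wild type.

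Kinesin-II is built from klp-11, klp-20 and kap-1, and osm-3 is the second, homodimeric kinesin that reaches the distal segment. klp-11 (chromosome IV, 8756735 to 8762066; exonic length 2419 bases) had 1.16, 0.585 and 0.984 CPM in the mutant against 1.96, 1.85 and 2.41 CPM in wild type, without overlap. It fell 2.29-fold (-1.19 ± 0.40; adjusted p = 0.0439). The call held when mutant replicate 1 was left out and ended with the omission of any other library (adjusted p of up to 0.194), with DESeq2 (0.0515) and with no expression filter (0.0731). Of its exonic bases, 2349 are shared with F20C5.11 on the same strand, so most of its reads cannot be given to it with certainty. klp-20 (2271 bases) had 4.44, 5.44 and 4.85 CPM in the mutant against 7.83, 7.86 and 6.74 CPM in wild type. Every mutant library was lower, and the log2 fold change was -0.61 ± 0.26 (adjusted p = 0.0988). kap-1 (2347 bases) ran from 0.643 to 1.36 CPM in the mutant and from 1.56 to 2.13 CPM in wild type (-0.84 ± 0.40, adjusted p = 0.132). osm-3 (3023 bases) did not pass either (-0.69 ± 0.38, adjusted p = 0.174); its mutant replicate 1, at 2.57 CPM, lay within the wild-type range of 2.51 to 3.35 CPM.

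**Figure D3:**
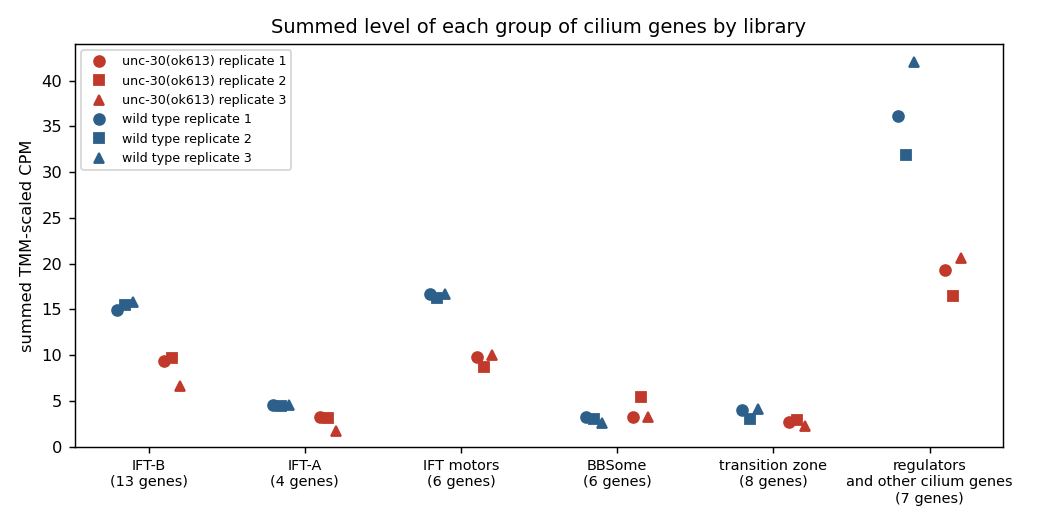
Summed TMM-scaled CPM of the genes of each role in each library (red unc-30(ok613), blue wild type, with a symbol per replicate). The blue points lie above the red in IFT-B, IFT-A, the motors, the transition zone and the mixed group, where the sum was 31.9 to 41.98 CPM in wild type and 16.5 to 20.6 CPM in the mutant, and not in the BBSome.

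Summed over its genes, IFT-B stood at 14.9 to 15.8 CPM in the wild-type libraries and at 6.66 to 9.65 CPM in the mutant, and the motors at 16.2 to 16.7 CPM and 8.65 to 10.00 CPM. The most abundant genes of these sums were osm-1 and dyf-3 in IFT-B and klp-20 in the motors. In the mixed group che-10 made up 23.4 ± 6.21 CPM of 36.6 ± 5.08 CPM in wild type (SD, n = 3). With scaling by total counts the BBSome summed to 2.13 to 3.76 CPM in the mutant and 3.49 to 4.78 CPM in wild type. The sums are given as a description, without a test.

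The BBSome, a coat that moves membrane proteins in and out of cilia, held the 1 gene that rose. bbs-1 (chromosome I, 14371138 to 14376086; exonic length 1984 bases) had 0.900, 1.29 and 0.984 CPM in the mutant against 0.357, 0.452 and 0.282 CPM in wild type. All mutant libraries lay above all wild-type libraries. It rose 2.91-fold (log2 fold change 1.54 ± 0.42; adjusted p = 0.0217) on 49 and 34 counts. With scaling by total counts the log2 fold change was 0.53 and missed the threshold (adjusted p = 0.283). The call also ended when mutant replicate 2, mutant replicate 3, wild type replicate 1 or wild type replicate 3 was omitted (adjusted p of up to 0.0949). The other 3 tested genes of the complex did not pass. bbs-5 (1251 bases) had a log2 fold change of 0.50 ± 0.42, which was -0.51 with scaling by total counts. osm-12 (2337 bases) had -0.77 ± 0.53, with 0.129 to 0.292 CPM in the mutant below the 0.329 to 0.345 CPM of wild type. bbs-8 (1719 bases) had 0.26 ± 0.62, with 31 of its 43 mutant counts in replicate 2.

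The transition zone was the most thinly measured role, with 2 of 8 genes tested. nphp-4, a nephrocystin of the gate (chromosome V, 11831197 to 11843728; exonic length 4102 bases), had 0.386, 0.292 and 0.151 CPM in the mutant against 0.739, 0.823 and 0.971 CPM in wild type. The groups did not overlap, and the gene fell 2.97-fold (-1.57 ± 0.48; adjusted p = 0.0321) on 13 and 80 counts. Its call held when mutant replicate 1 was left out and ended with the omission of any other library (adjusted p of up to 0.144), with DESeq2 (0.0796) and with no expression filter (0.0760). mksr-2, a B9 domain protein and at 689 bases the shortest tested member, had 0.777 ± 0.0978 CPM in the mutant, against 0.806 ± 0.0349 CPM in N2 (SD, n = 3). Its libraries were interleaved, with a log2 fold change of -0.05 ± 0.38 (adjusted p = 0.929).

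The 15 untested members had 1 to 27 counts over the mutant libraries and 13 to 61 over wild type. Ratios of their summed counts, wild type over mutant after TMM scaling, are given with exact 95% intervals that cover counting error only. The interval included 1 for 11 of them and lay above 1 for the other 4. mks-6, a C2 domain protein of the transition zone (3757 bases), had 2 counts in the mutant and 50 in wild type (ratio 12.01, interval 3.16 to 102), of which 38 were in wild type replicate 1. dyf-11, an IFT-B subunit (1714 bases), had 1 and 27 counts (ratio 12.97, interval 2.14 to 531). ift-81, the partner of ift-74 in the IFT-B core (2256 bases), had 10 and 61 counts (ratio 2.93, interval 1.49 to 6.42), and the groups overlapped. dyf-5, a kinase that limits cilium length (1878 bases), had 7 and 35 counts (ratio 2.40, interval 1.05 to 6.41), also with overlap.

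Among the 11 whose interval included 1, only mks-3, a transmembrane protein of the gate (2918 bases), had groups that did not overlap, with 4 counts in the mutant and 13 in wild type (ratio 1.56, interval 0.482 to 6.57). mks-5, a transition zone scaffold (4096 bases), had 9 and 38 counts (ratio 2.03, interval 0.964 to 4.77). ift-20, the smallest member at 463 bases, had 2 and 14 counts (ratio 3.36, interval 0.772 to 30.5). The ratios of mks-1, mksr-1, nphp-1, osm-6, dyf-13, xbx-1, bbs-2 and bbs-9 ran from 0.652 (nphp-1) to 1.20 (osm-6), and no difference was detectable at this depth.

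**Figure D4:**
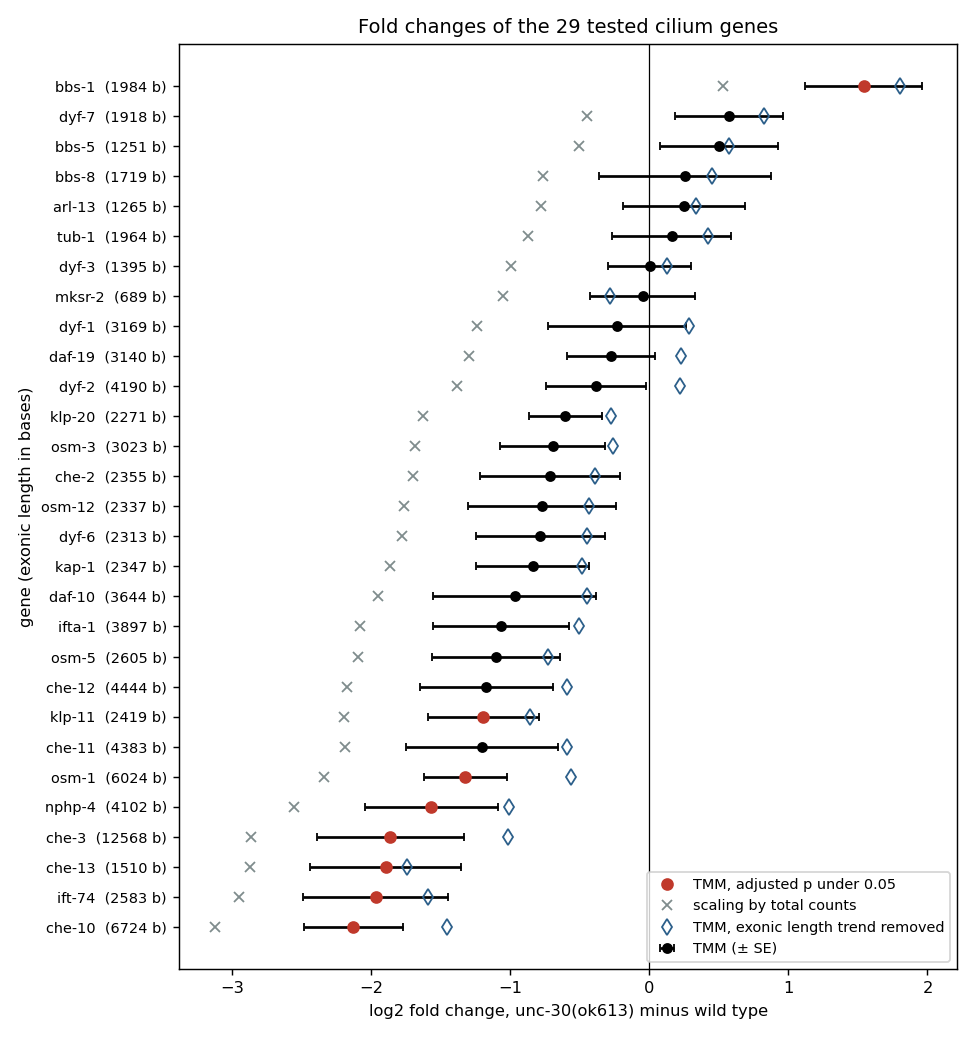
Log2 fold change (unc-30(ok613) minus wild type) of the 29 tested cilium genes, with exonic length in bases beside each name. Circles are TMM values with SE bars (red where adjusted p is under 0.05), crosses use scaling by total counts, and diamonds have the exonic length trend removed. Every cross lies left of its circle, and the diamonds of che-13, ift-74 and che-10 are the farthest to the left of the diamonds.

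Fold change went with exonic length in the series as a whole, and the cilium genes are long. Their median exonic length was 2419 bases among those tested, against 1366 bases over all tested genes. Over all genes the median log2 fold change was 0.45 up to 500 bases, -0.34 from 2001 to 3000 bases and -0.63 above 6000 bases. Of genes above 6000 bases, 40.9% fell, and che-10, osm-1 and che-3, the 3 members of that length, all did. Across the 29 members Spearman's rho of log2 fold change with length was -0.66 (Pearson's r -0.60 on log2 length), against -0.22 (-0.20) across all tested genes. These coefficients describe genes that share the same 6 libraries.

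**Figure D5:**
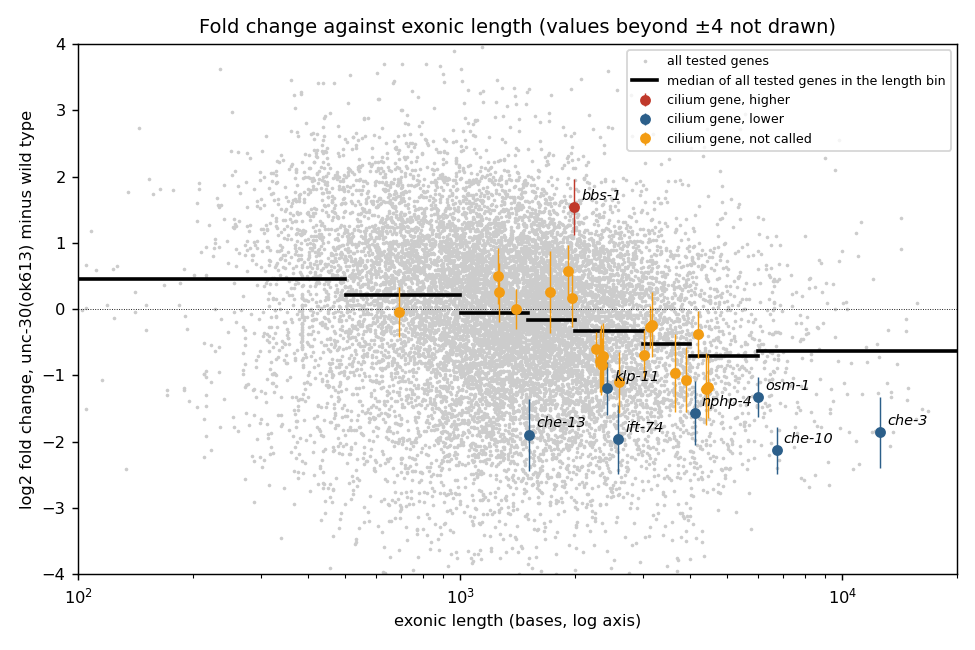
Log2 fold change (unc-30(ok613) minus wild type) against exonic length in bases (log axis) for all tested genes (grey) and the 29 tested cilium genes (coloured by call, with SE bars). Black steps are the median of all tested genes in each length bin, from 0.45 for the shortest to -0.63 for the longest. The 7 cilium genes that fell lie below the step at their length.

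Of the 29 members, 19 lay below the median of all genes of their length bin and 10 above, with a median difference of -0.43. With the length trend of each library removed, 3 members fell: che-10 (-1.45 ± 0.35, adjusted p = 0.0132), che-13 (-1.74 ± 0.53, adjusted p = 0.0316) and ift-74 (-1.59 ± 0.51, adjusted p = 0.0387). With a replicate block in that fit, ift-74 no longer passed (-1.61, adjusted p = 0.0587). bbs-1 rose there (1.80 ± 0.42, adjusted p = 0.0121). In that fit 37.7% of all genes passed, 18.2% lower and 19.5% higher. osm-1 (-0.56), che-3 (-1.01), nphp-4 (-1.01) and klp-11 (-0.86) no longer passed, with adjusted p of 0.104 to 0.188. Across the 29 members Spearman's rho with length was still -0.53 in that fit (Pearson's r -0.38), against 0.01 (0.03) across all tested genes. Of the 29, 8 passed the filter through the wild-type libraries alone, che-13 and ift-74 among them. Nothing is therefore read from the split, the median difference or these coefficients. The part of length in the result was not tested beyond removal of the trend.

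Other genes of the cilium, from a second list of 38 symbols of which 35 were found and 21 tested, held 4 that rose, 3 that fell and 14 that did not pass, where 17.1% of all tested genes rose and 20.9% fell, so nothing is read from these shares. Scaling by total counts gave 0 higher and 11 lower, beside 3.43% and 56.4% of all tested genes. Of the 21, 4 passed the filter through the wild-type libraries alone. tbb-4, a beta-tubulin of ciliated neurons (1564 bases), rose 2.81-fold and rpi-2, homologue of the retinitis pigmentosa protein RP2 (1761 bases), rose 2.37-fold. Neither passed with the other scaling (log2 fold changes 0.47 and 0.23). dyla-1, a dynein light chain gene (938 bases), fell 6.65-fold, from 1.66, 0.658 and 1.19 CPM in wild type to 0.257, 0.175 and 0.0757 CPM (edgeR adjusted p = 0.00944). It is one of those 4, with 8 counts over the mutant libraries. ccpp-1, a carboxypeptidase that trims polyglutamate chains from ciliary tubulin (3356 bases), fell 3.06-fold, from 52.97, 34.96 and 39.9 CPM to 17.8, 12.6 and 11.4 CPM (edgeR adjusted p = 0.00435). Both stood lower in every mutant library than in any wild-type library, and both passed with the length trend removed. Of 22 tested sensory signalling genes, 1 rose and 2 fell (17.1% and 20.9% of all genes), and 2 of the 22 passed the filter through the wild-type libraries alone. Scaling by total counts gave 0 higher and 13 lower (3.43% and 56.4% of all genes). Removal of the length trend gave 6 higher and 1 lower (19.5% and 18.2%). Called in the main fit were odr-10, the diacetyl receptor (2.86-fold higher, not passing with scaling by total counts), and pde-2, a phosphodiesterase (2.53-fold lower). The other was gcy-28, a receptor guanylate cyclase (2.09-fold lower, not passing with the length trend removed).

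Marker lists of the rest of the animal are given beside these values. Of all tested genes 17.1% were higher and 20.9% lower in the main fit. With scaling by total counts these shares were 3.43% and 56.4%. Counts near them are not read as a result about a tissue. Of 20 pan-neuronal genes 4 rose and 4 fell, with a median log2 fold change of -0.36 and 12 below 0. With the length trend removed 6 of the 20 rose and 2 fell, with a median of 0.17 and 7 below 0. In that fit 19.5% of all genes rose and 18.2% fell, and no direction is read for the pan-neuronal genes. Their summed TMM-scaled level was 958 to 1195 CPM in the mutant and 504 to 596 CPM in wild type, but with scaling by total counts it was 717 to 782 CPM against 693 to 841 CPM, with overlap. Of 14 tested sensory neuron transcription factors 0 rose and 1 fell, nsy-7 at 2.26-fold (edgeR). Of these factors 2 were higher at an unadjusted p under 0.05, 1 was higher with DESeq2, and 3 were higher and 1 lower with the length trend removed. Their summed level was 68.4 to 85.95 CPM in the mutant against 46.96 to 60.1 CPM in wild type. That order turns with scaling by total counts (51.97 to 56.2 CPM against 64.6 to 84.3 CPM). Of 10 epidermal genes 3 rose and 0 fell, and their summed level was 4731 to 9283 CPM in the mutant and 475 to 3526 CPM in wild type, with wild type replicate 2 the highest of its group. With scaling by total counts the epidermal groups overlapped, at 3593 to 6481 CPM against 707 to 4951 CPM. Of 10 muscle genes 7 rose and 1 fell, and of 10 intestinal genes 4 rose and 0 fell. Of 9 tested genes of D-type neurons 2 rose and 2 fell, and 3 of the 9 passed the filter through the wild-type libraries alone. Of the germ line lists, 6 of 20 sperm genes and 4 of 15 proliferative and meiotic genes fell and 0 rose, and 0 of 15 oocyte genes were called (edgeR). DESeq2 gave the same counts for these 3 lists, and at an unadjusted p under 0.05 they held 0 higher genes, and the oocyte list 0 lower genes. The summed oocyte level was 6537, 1411 and 1542 CPM in mutant replicates 1 to 3 and 4914, 1907 and 1667 CPM in wild type. Replicate 1 was the highest in both groups. With this spread the lack of oocyte calls does not show equal levels. With scaling by total counts 3 pan-neuronal, 2 D-type and 1 intestinal gene were higher and no gene of the other lists in this paragraph. Lower in that fit were 13 pan-neuronal, 13 sperm, 12 proliferative and meiotic, 6 D-type, 3 muscle, 3 intestinal and 2 epidermal genes, 3 sensory neuron factors and 0 oocyte genes. No gene of these lists was at 0 in all libraries of a group. The part of these tissues in the values of the cilium genes was not tested.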

How the data were processed

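Per the submitters' processing notes, HTSeq gave the deposited raw counts per WormBase gene, with 1 file for each library; the notes name DESeq2 too. The sources used here do not give the aligner, build, annotation, strand setting or versions. Groups follow the strain label, since the genotype label names the mutant for all 6 samples. No label says whether replicates were separate cultures: p-values may measure technical spread only. Symbols, coordinates (1-based) and union exon lengths are from Ensembl release 115 of WBcel235. Exons of 22 members overlap those of another gene.

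Counts of 14506 genes (at least 0.458 CPM of total counts, before TMM scaling, in 3 libraries) were tested with edgeR 4.0.16 under R 4.3.3 (two-sided quasi-likelihood F-test, robust fit, TMM factors, group alone in the model), with Benjamini-Hochberg adjustment over all tested genes. Adjusted p-values with no tool named are edgeR's, and an SE is the log2 fold change divided by the square root of F. The fit was also tested on simulated counts with known changes in a small share of genes, unlike the data here. Alternatives were scaling by total counts, DESeq2 1.42.0, no filter, length trend removed by loess, a replicate block, ribosomal RNA genes removed and each library left out. Members and lists were chosen with earlier results of these data known. Values per library are given for all called members and for the highest member per kilobase of a role with none. Further members were named to account for all 44. Of the called genes in other lists, dyla-1, ccpp-1, grl-2, ptr-10 and vap-2 have values per library. The rest of those named have no values per library, and several lists have no called gene named. The planned motif search in promoters was not run.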

Additional observations from a re-analysis of the deposited data

How the results depend on the processing

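At this depth 15 of 44 members were too low to test. Of the 8 calls, only that of che-10 held in every alternative and omission run. Scaling by total counts gave 8673 calls over all genes, 0 members higher and 22 lower, a member median of -1.76, and 0 higher and 11 lower among the other ciliary genes. It turned dyf-3 (-0.998), bbs-5 (-0.51), bbs-8 (-0.76), arl-13 (-0.78), tub-1 (-0.87) and dyf-7 (-0.45). DESeq2 left 4 members lower, and mksr-2 turned to 0.0024. Removing the length trend left 3 lower with a median of -0.43, and dyf-1 (0.29), dyf-2 (0.22) and daf-19 (0.23) turned. Removing ribosomal RNA genes gave a median of -0.69, and mksr-2 turned to 0.0093. The mean filter, added after the data were seen, gave 0 members higher, with bbs-1, ift-74 and nphp-4 no longer tested, and dyf-3 at -0.015. With no filter mks-6 was called lower as well (edgeR adjusted p = 0.0344).

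No label says that replicate numbers pair samples, so the main fit has no block. Deviations of same-numbered samples from their group means correlated at 0.46, 0.44 and -0.07. The values 0.46 and 0.44 were the highest of all pairings of a mutant with a wild-type library. The replicate block gave the same 8 member calls, 5 other ciliary genes lower, and dyf-3 at -0.0044. The replicate block with the length trend removed gave 2 members higher (bbs-1 and dyf-7) and 2 lower (che-10 and che-13, without ift-74), a median of -0.45, dyf-1 at 0.16, dyf-2 at 0.20 and daf-19 at 0.25.

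Leaving out 1 library at a time gave 2791 to 6154 calls over all genes, 0 to 1 members higher, 1 to 8 lower and a median of -0.77 to -0.52. Falls numbered 2 without mutant replicate 2, 1 without mutant replicate 3, 4 without wild type replicate 1 and 2 without wild type replicate 3, and none of these omissions left a rise. Among the other ciliary genes, 0 to 4 were higher and 2 to 5 lower. Ranges that cross 0 were those of arl-13 (-0.079 to 0.50), bbs-8 (-0.78 to 0.67), dyf-1 (-0.76 to 0.089), dyf-3 (-0.072 to 0.17), mksr-2 (-0.078 to 0.099) and tub-1 (-0.10 to 0.44).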

Other observations

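Genes of the glia that wrap the amphid and phasmid cilia formed a further list of 17, of which 14 were tested: 4 rose, 1 fell and 9 did not pass (edgeR), beside 17.1% of all tested genes higher and 20.9% lower. Scaling by total counts gave 0 higher and 5 lower, beside 3.43% of all tested genes higher and 56.4% lower. No fall of the list is read from this. The list shares lin-26 and che-14 with the epidermal list, and neither passed. grl-2, a secreted Ground-like protein gene, had 1.67, 3.33 and 2.42 CPM in mutant replicates 1 to 3 and 0.382, 0.987 and 0.219 CPM in wild type, a rise of 4.77-fold (edgeR adjusted p = 0.0181). ptr-10, a patched-related gene used as a glial marker, rose 3.80-fold, from 2.78, 5.35 and 0.815 CPM in wild type to 8.36, 13.7 and 11.7 CPM (edgeR adjusted p = 0.0354). Under total-count scaling neither passed (edgeR adjusted p = 0.0903 and 0.209). vap-2, a secreted protein gene, fell 9.95-fold, with 3.73, 0.643 and 0.757 CPM in the mutant and 17.2, 5.26 and 28.8 CPM in wild type (edgeR adjusted p = 0.0245). The groups of these 3 genes did not overlap.

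Genes of ciliated neurons of males were near the floor in these libraries. Of 11 listed, 1 was tested, tba-9, with a log2 fold change of -0.28. The polycystin pkd-2 had 5, 6 and 5 counts in the mutant and 2, 2 and 3 in wild type, and the polycystin lov-1 had 1, 0 and 0 counts against 0, 0 and 3.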
